A study of Mus musculus with 4 samples.

Results

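Keratins, claudins and the genes of epithelial junctions were read in cultured mouse lung cells with and without depletion of the transcription factor c-Myc. Members were the probe sets whose annotation gave exactly 1 gene symbol, that symbol being a numbered keratin (Krt), a numbered claudin (Cldn) or 1 of 13 further genes (Epcam, Cdh1, Ocln, Dsp, Jup, Pkp1, Pkp2, Pkp3, Dsg2, Dsc2, Esrp1, Esrp2 and Grhl2). The rule took 77 of the 18193 genes named in this way, 44 of them keratins and 20 of them claudins, through 116 of 45037 probe sets. Keratins with a letter in the symbol, such as Krt6a, fell outside it, as did 1 probe set that carried the symbols of both Krt17 and Krt14.

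The arrays were single-colour Affymetrix mouse expression arrays, 2 of Myc-depleted cells and 2 of control cells. All cells derived from ICR mice 4 to 6 weeks old and were labelled bronchoalveolar stem cells (BASCs), sorted from lung as negative for CD31 and CD45 and positive for CD34 and ScaI, then plated on irradiated mouse embryonic fibroblasts as feeder cells. For later passages the study's results describe collagen-coated dishes, whereas its methods describe passage onto the feeder cells. Which culture gave the RNA is not stated. Myc-depleted cells are described as carrying a lentiviral short hairpin RNA against c-Myc, with stable lines selected by puromycin, while the study calls the controls wild type. The study used 2 such hairpins, and which hairpin or how many lines gave the Myc-depleted arrays is not stated. A control lentivirus with the same selection marker is described, and the study used it in its growth assays. The sources do not state whether the control cells of these arrays received it or puromycin. Infection and selection thus cannot be told apart from depletion. The sources also do not state whether replicate arrays were from separate cultures. The p-values thus reflect array-to-array spread alone, and that spread may be technical. The level of a probe set is its log2 expression value, a difference is Myc-depleted minus control on that scale, and the number of arrays limits the precision of both.

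Epithelial cells are held together by several kinds of junction. Claudins and occludin form the tight junction that seals the space between cells, E-cadherin (Cdh1) forms the adherens junction below it, and desmosomes anchor the keratin filaments of neighbouring cells to each other. Keratins are obligate pairs of a type I and a type II protein, and the pair that is made tells one epithelium from another. Krt8 and Krt18 are the pair of simple epithelia such as the alveolar and bronchiolar lining, and Krt5 and Krt14 are that of basal cells.

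Most of the members were near the bottom of the array's range in all 4 samples. A probe set was tested only when its mean over the 4 arrays reached 5.08, the 40th percentile of all probe sets. Of the 116 member probe sets 41 (35.3%) passed, against 60% of all probe sets by construction. These 41 represented 33 genes, and the other 44 genes had no tested probe set. The 75 member probe sets that did not pass had means between 3.52 and 5.04, and their highest value on any array was 5.42. Of the 41 that passed, 20 had a mean within 0.5 of the threshold, and 8, from 6 genes (Pkp2, Cldn12, Cldn15, Krt42, Krt10 and Epcam), had a mean of at least 7. Fewer cells expressing a gene and less of its RNA per cell cannot be told apart in these bulk samples.

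**Figure D1:**
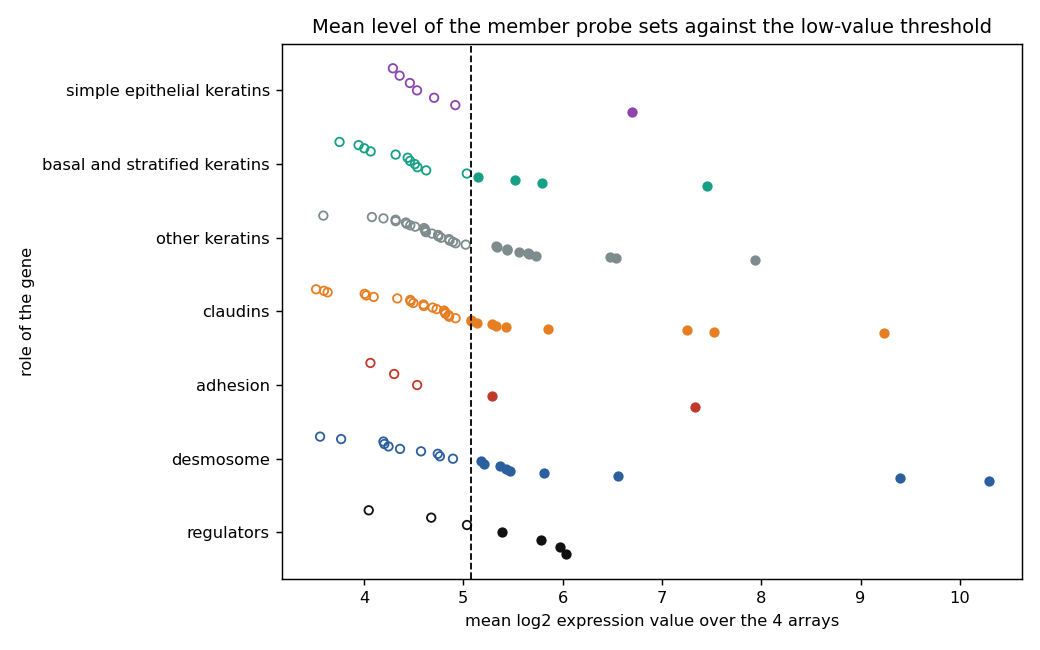
Mean log2 expression value over the 4 arrays (horizontal axis) of each of the 116 member probe sets, grouped by role, filled where the probe set passed the low-value threshold of 5.08 (dashed line) and open where it did not. Of the 7 probe sets of simple epithelial keratins 1 lies right of the line. The rightmost points are Pkp2 probe sets at 10.3 and 9.39, followed by Cldn12 at 9.23.

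The cell type label was checked against markers. The surfactant gene Sftpc, which marks alveolar type II cells, had values of 4.75 and 4.72 on the Myc-depleted arrays, against 4.40 and 4.35 on the control arrays. The club cell gene Scgb1a1 had 4.41 and 4.68 on the Myc-depleted arrays and 4.35 and 4.37 on the control arrays. Both genes thus had means under the threshold, as did the lung epithelial factor Nkx2-1 (mean over all arrays 4.11), and 9 of 15 lung epithelial markers on the array had no tested probe set. Among these 9, the club cell gene Cyp2f2 had 5.26 and 5.44 on the Myc-depleted arrays, against 4.58 and 4.35 on the control arrays. Its mean over all arrays was 4.91, and its difference of 0.88 was not tested. Of 15 fibroblast and mesenchymal markers 13 were tested and 11 had a mean of at least 7, with vimentin (Vim) at 14.4 and 14.4 on the Myc-depleted arrays and 14.5 and 14.5 on the control arrays. The other 6 lung epithelial markers were tested. Among them Pdpn, an alveolar type I marker that fibroblasts also make, had a mean of 11.75, the lipid transporter Abca3 one of 7.63 and Hopx one of 6.35, while Sftpb, Scgb3a1 and Aqp5 had means between 5.15 and 5.73. The study's evidence for the label was protein, a measure unlike RNA. It reports staining for the products of both Sftpc and Scgb1a1 in most colonies, also after several passages. It also reports club-like and alveolar-like cells after culture in a differentiation medium. Of RNA, the study states that Sftpc, Scgb1a1 and aquaporin did not change on its arrays, without showing the values. Neither Sftpc nor Scgb1a1 was tested here. As RNA on these arrays, the defining pair was under the threshold while some broader lung epithelial markers were above it. RNA of feeder fibroblasts cannot be told apart from that of the labelled cells, and its part in these levels was not tested. Of 7 leukocyte markers and 7 endothelial markers on the array, 3 and 6 had no tested probe set, among them Ptprc and Pecam1, which encode the sorted-out proteins CD45 and CD31. Of the 4 leukocyte markers tested, the macrophage receptor Csf1r had a mean of 9.38, Cd14 one of 6.81, Cd3e one of 5.97 and Adgre1 one of 5.27. The groups overlapped for each of them. The macrophage markers Cd68 and Itgam, with means of 4.63 and 4.29, were not tested. The fibroblast list, as the sum of linear values of its tested genes, came to 132000 and 116100 on the Myc-depleted arrays and 116700 and 129100 on the control arrays, so the groups overlapped. Within it 4 genes were higher and 1 lower at an unadjusted limma p under 0.05, which 6.96% of all genes reached as higher and 5.23% as lower. Pdgfra, a growth factor receptor of fibroblasts, differed by 1.23, and the surface protein Thy1 by -1.26. Thy1 had 4.68 and 4.75 on the Myc-depleted arrays, both under the threshold, against 6.015 and 5.92 on the control arrays. It thus passed the threshold only through the control arrays. The lung epithelial list came to 4201 and 4115 on the Myc-depleted arrays, against 3586 and 3544 on the control arrays, without overlap. Most of this sum was Pdpn, with 11.87 and 11.85 on the Myc-depleted arrays and 11.65 and 11.63 on the control arrays. Without Pdpn the sum was 444.8 and 424.2 on the Myc-depleted arrays, against 378.3 and 383.2 on the control arrays. Abca3 had the highest mean of the genes left, with 7.87 and 7.71 on the Myc-depleted arrays and 7.435 and 7.50 on the control arrays. Hopx differed by 0.14, Sftpb by 0.04, Scgb3a1 by 0.07 and Aqp5 by -0.11. The part of either list in the differences below was not tested.

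Myc itself was read by 1 probe set and had values of 8.35 and 8.50 on the Myc-depleted arrays, against 9.21 and 9.69 on the control arrays. Both Myc-depleted arrays were below both control arrays, with a difference of -1.02 (SE 0.21, limma adjusted p = 0.363, unadjusted p = 0.0076). The array pairs also differed in a technical measure. Poly-A spike-in RNA, added before labelling, had a 3′ minus 5′ log2 value of 3.64 and 1.78 on Myc-depleted arrays 1 and 2, and of 1.89 and 3.12 on control arrays 1 and 2. Myc-depleted 1 and control 2 thus resembled each other in this measure, as did Myc-depleted 2 and control 1.

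No member passed the adjusted threshold in the comparison of Myc-depleted with control cells. In limma with Benjamini-Hochberg adjustment over all 27022 probe sets tested, 0 of 41 member probe sets had an adjusted p under 0.05 (smallest 0.364), and 0% of all probe sets did. An unadjusted p under 0.05 was reached by 4 member probe sets. Of these, 2 were higher in Myc-depleted cells, 4.88% of those tested, where 5.63% of all probe sets were (Cldn15 and Epcam), and 2 were lower, where 4.46% of all probe sets were (Pkp2 and Krt80). The members' share thus lay near that of all probe sets. Groups did not overlap for 12 member probe sets that were higher (29.3%, against 22.5% of all probe sets) and for 10 that were lower (24.4%, against 18.5%). Among those higher, Krt4 and Cldn4 passed the low-value threshold only through the Myc-depleted arrays. No tested member differed by 2-fold, and 4 differed by at least 0.5 on the log2 scale. Over the 33 tested genes the median difference was 0.03 (21 positive, 12 negative), and over all 12589 genes tested it was 0.02. The count of 4 was 1 without control replicate 1 and 1 without control replicate 2. The median was -0.03 without Myc-depleted replicate 2 and 0.10 without Myc-depleted replicate 1.

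**Figure D2:**
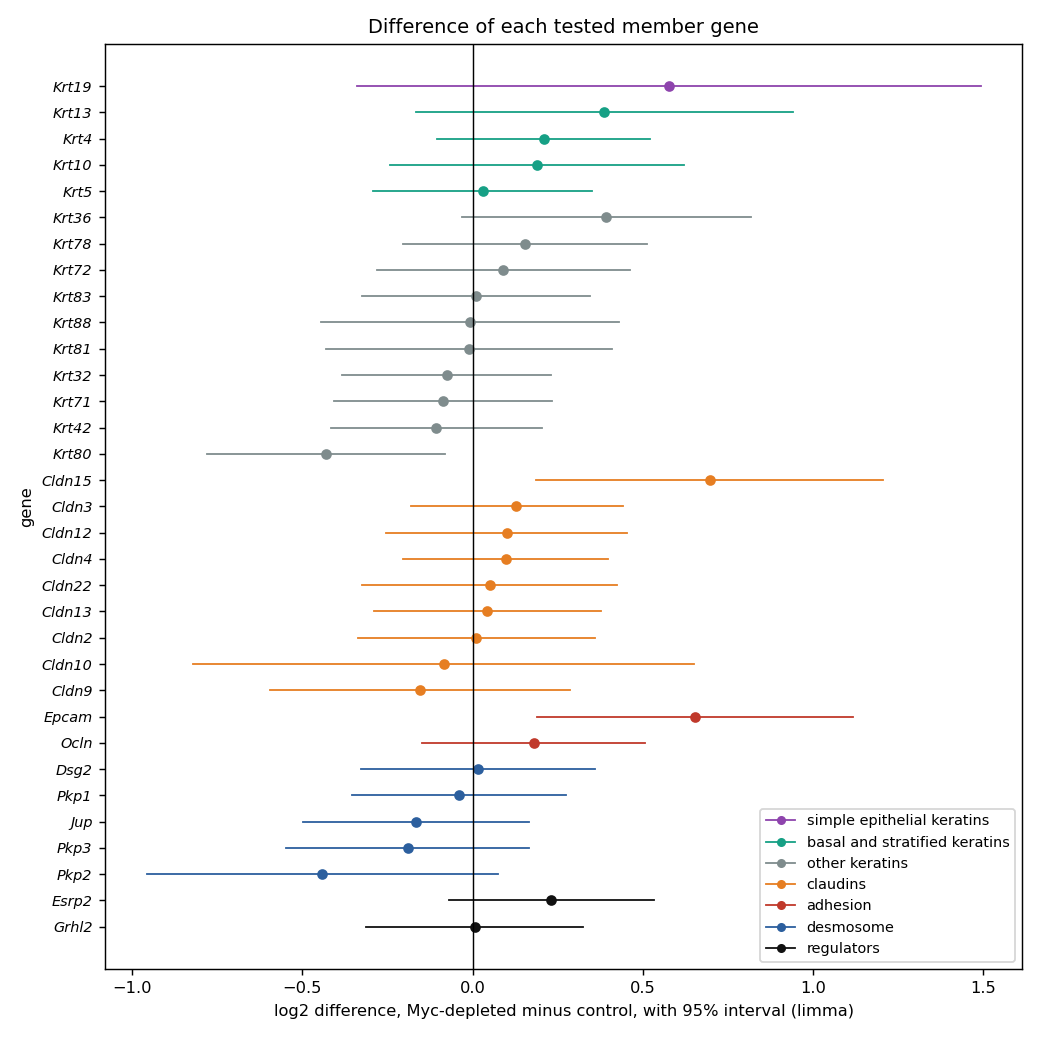
Log2 difference, Myc-depleted minus control, of each of the 33 tested member genes (points) with its 95% interval from limma (lines), coloured by role and ordered by role and size. The intervals of Cldn15, Epcam and Krt80 do not include 0, and all other intervals do.

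The keratins of simple epithelia were mostly below the threshold. Krt8, the type II keratin of simple epithelia, had 3 probe sets with means of 4.92, 4.53 and 4.46. The one with the highest mean had 4.83 and 4.99 on the Myc-depleted arrays and 5.21 and 4.64 on the control arrays. Its partner Krt18 had 4.49 and 4.29 on the Myc-depleted arrays, against 4.49 and 4.18 on the control arrays. The groups overlapped for both of these probe sets, as they did for the intestinal keratin Krt20 (mean over all arrays 4.29). Of the other Krt8 probe sets, 1 differed by -0.24 without overlap.

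Krt19, the small type I keratin of glandular and ductal epithelia, was the only member of this group to be tested. It had 7.28 and 6.70 on the Myc-depleted arrays and 6.74 and 6.08 on the control arrays. Myc-depleted 1 was highest and control 2 lowest, while Myc-depleted 2 lay just under control 1, so the groups overlapped. The difference was 0.58 (SE 0.33, 95% interval -0.34 to 1.49), with a limma adjusted p of 0.646. It was 0.24 without control replicate 2, 0.29 without Myc-depleted replicate 1, 0.87 without Myc-depleted replicate 2 and 0.91 without control replicate 1.

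Krt7, a type II keratin of glandular and airway epithelia, stood out among the untested members and is described because of its values. It had 4.37 and 4.40 on the Myc-depleted arrays, against 5.05 and 5.01 on the control arrays. Both Myc-depleted arrays were below both control arrays by more than the spread within either group, but the mean over all arrays of 4.71 was under the threshold. With no filter the difference was -0.64 (SE 0.10, limma adjusted p = 0.304, unadjusted p = 0.0022). In that fit 1 of the 75 otherwise untested probe sets was lower at an unadjusted p under 0.05, where 3.67% of all probe sets were, and 1 was higher, a probe set of Krt13, where 4.82% of all were.

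The keratins of basal and stratified epithelia gave 4 tested genes of 9. Krt5, the type II keratin of basal cells, had 5.83 and 5.79 on the Myc-depleted arrays and 5.83 and 5.72 on the control arrays, a difference of 0.03 (95% interval -0.29 to 0.35). Its partner Krt14 had no tested probe set, with means of 4.63, 4.44 and 4.00 over its 3 probe sets. Krt15, Krt16 and Krt17, which mark basal or activated keratinocytes, were not tested either.

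Krt10, known as the type I keratin of suprabasal epidermis, had 7.61 and 7.49 on the Myc-depleted arrays and 7.21 and 7.51 on the control arrays. The groups overlapped, and the difference was 0.19 (95% interval -0.24 to 0.62). Krt1, its partner in epidermis, had a mean of 5.04 and was not tested. Krt13, a type I keratin of wet stratified mucosa, had 5.71 and 5.73 on the Myc-depleted arrays, against 5.57 and 5.09 on the control arrays. The Myc-depleted values were higher than both control values, although control 2 lay well apart from control 1, and the difference of 0.39 (SE 0.20) had a limma adjusted p of 0.611. It was 0.15 without control replicate 2 and 0.62 without control replicate 1. Its partner Krt4 differed by 0.21 (SE 0.11, adjusted p = 0.629), without overlap of the groups.

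Of the 30 other keratins, which include those of hair and nail, 10 were tested, and their median difference was -0.01 (4 positive, 6 negative). Krt80, a type II keratin found in many epithelia, had 6.31 and 6.33 on the Myc-depleted arrays, against 6.66 and 6.84 on the control arrays. Both Myc-depleted arrays were lower, and the difference of -0.43 (SE 0.13, 95% interval -0.78 to -0.08) had a limma unadjusted p of 0.027 and an adjusted p of 0.437. It was -0.53 between Myc-depleted 1 and control 2 and -0.33 between Myc-depleted 2 and control 1, the pairs alike in spike-in values. Krt36, a type I hair keratin, had 5.48 and 5.78 on the Myc-depleted arrays and 5.28 and 5.20 on the control arrays, with a difference of 0.39 (SE 0.15, adjusted p = 0.525).

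The type I keratin Krt42 and the type II hair keratin Krt81 had the other high means of this group. Krt42 had 7.89 and 7.87 on the Myc-depleted arrays and 7.95 and 8.02 on the control arrays, a difference of -0.11 (95% interval -0.42 to 0.20). That probe set is of the kind marked x, some of whose probes can also bind other transcripts, and the other probe set of Krt42 had a mean of 5.44 and a difference of -0.03. Krt81 had 6.37 and 6.58 on the Myc-depleted arrays and 6.59 and 6.37 on the control arrays, so its groups overlapped (difference -0.01, and 0.0042 after quantile normalization). The remaining tested genes Krt32, Krt71, Krt72, Krt78, Krt83 and Krt88 had differences between -0.09 and 0.15. Over all keratins, 6 of 22 type I and 9 of 21 type II genes were tested. In the mouse annotation 21 of the type I genes lie on chromosome 11 and all 21 type II genes on chromosome 15, with Krt18 as the type I gene on chromosome 15.

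**Figure D3:**
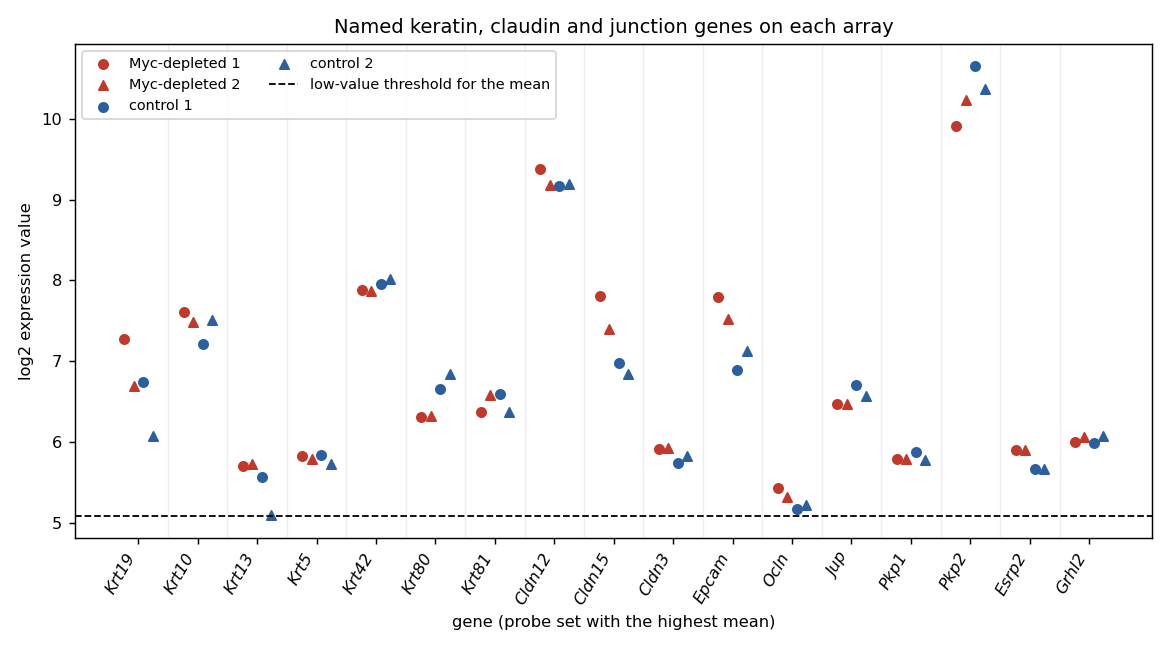
Log2 expression value of 17 named member genes on each of the 4 arrays (red Myc-depleted, blue control; circles replicate 1, triangles replicate 2), and the low-value threshold of 5.08 as a dashed line. Both Myc-depleted arrays lie above both control arrays for Cldn15 and Epcam and below them for Krt80 and Pkp2, while the groups overlap for Krt19 and Cldn12.

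Of 20 claudins 9 were tested, with a median difference of 0.05 (7 positive, 2 negative), and 1 had an unadjusted p under 0.05. Cldn15, a claudin known from the intestine, where it forms a pore for cations, had 7.80 and 7.40 on the Myc-depleted arrays, against 6.97 and 6.84 on the control arrays. Its values were higher on both Myc-depleted arrays, and the difference of 0.70 (SE 0.18, 95% interval 0.19 to 1.21) corresponded to a 1.62-fold excess, with a limma unadjusted p of 0.019 and an adjusted p of 0.406. It was 0.96 between Myc-depleted 1 and control 2 and 0.43 between Myc-depleted 2 and control 1.

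Cldn12 was the claudin whose probe sets had the highest means. It had 9.37 and 9.19 on the Myc-depleted arrays and 9.17 and 9.19 on the control arrays, and its groups overlapped. Its 2 probe sets differed by 0.10 (95% interval -0.25 to 0.45) and by 0.08. Cldn3, a claudin of lung and other tight epithelia, had 5.91 and 5.92 on the Myc-depleted arrays and 5.75 and 5.83 on the control arrays through 1 probe set, a difference of 0.13 (95% interval -0.18 to 0.44), and its other 3 probe sets were under the threshold. The claudins best known from lung epithelium were otherwise at or below the threshold. Cldn18, of which the alveolar epithelium makes its own form, had means of 4.81 and 4.60 over its 2 probe sets, and Cldn7 had a mean of 4.34. Cldn4 had a mean of 5.08 and a difference of 0.10. Its control values of 5.04 and 5.02 were under the threshold, so it passed only through the Myc-depleted arrays (5.12 and 5.14). Cldn5, which seals endothelial junctions, had a mean of 4.60. The tested genes Cldn2, Cldn9, Cldn10, Cldn13 and Cldn22 had differences between -0.15 and 0.05.

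Epcam, a surface glycoprotein used to sort epithelial cells, was read by 2 probe sets that differed from each other. One had 7.80 and 7.52 on the Myc-depleted arrays, against 6.89 and 7.12 on the control arrays. Both Myc-depleted arrays were higher, with a difference of 0.65 (SE 0.17, 95% interval 0.19 to 1.12), a limma unadjusted p of 0.017 and an adjusted p of 0.400. The difference was 0.68 between Myc-depleted 1 and control 2 and 0.63 between Myc-depleted 2 and control 1. This probe set is marked x, for possible binding of other transcripts. The other probe set had 4.49 and 4.45 on the Myc-depleted arrays and 4.47 and 4.73 on the control arrays, was under the threshold, and differed by -0.13. The 2 probe sets thus differed in sign, and which of them follows Epcam was not tested.

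Cdh1, which encodes E-cadherin, was read by 1 probe set with 4.28 and 4.26 on the Myc-depleted arrays, against 4.29 and 4.39 on the control arrays. It lay under the threshold on every array. Ocln, the tight junction protein occludin, had 5.44 and 5.31 on the Myc-depleted arrays and 5.17 and 5.22 on the control arrays. The groups did not overlap, but the difference of 0.18 (95% interval -0.15 to 0.51) had a limma adjusted p of 0.695.

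The sequence before the start of Krt7, Cldn15 and Epcam is shown because these were the genes of the keratin, claudin and adhesion groups whose Myc-depleted and control arrays lay furthest apart. The 250 bases come from RefSeq promoter windows of mouse assembly GRCm38.p6, all on the plus strand, at chr15:101412153-101412402 for Krt7, chr5:136967619-136967868 for Cldn15 and chr17:87635729-87635978 for Epcam. Capitals mark CACCTG or its reverse complement CAGGTG, the letters that the repressors Snai1 and Zeb1 are known to bind in promoters of epithelial genes.
Krt7: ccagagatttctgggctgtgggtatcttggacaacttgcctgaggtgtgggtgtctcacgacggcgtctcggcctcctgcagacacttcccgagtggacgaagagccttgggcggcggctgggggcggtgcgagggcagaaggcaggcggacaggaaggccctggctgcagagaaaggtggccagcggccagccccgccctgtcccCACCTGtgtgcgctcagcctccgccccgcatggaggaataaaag
Cldn15: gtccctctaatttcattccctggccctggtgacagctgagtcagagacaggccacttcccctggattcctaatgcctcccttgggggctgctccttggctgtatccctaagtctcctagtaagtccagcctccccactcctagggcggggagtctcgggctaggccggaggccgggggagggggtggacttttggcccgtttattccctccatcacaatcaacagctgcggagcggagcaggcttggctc
Epcam: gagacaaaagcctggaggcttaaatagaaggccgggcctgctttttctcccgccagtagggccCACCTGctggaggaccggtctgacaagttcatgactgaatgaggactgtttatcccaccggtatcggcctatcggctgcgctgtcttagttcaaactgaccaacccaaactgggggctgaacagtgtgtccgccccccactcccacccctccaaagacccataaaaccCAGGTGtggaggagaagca

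Promoter windows of 300 bases, 250 before and 50 after a gene's start, were found for 51 of the 77 member genes. On both strands CACCTG or CAGGTG occurred in 21 of 61 windows of member genes (34.4%) and in 20.2% of all 32851 windows. The stretch of Krt7 held it once, that of Epcam once in each orientation and that of Cldn15 not at all. CACGTG, the palindrome that c-Myc binds with its partner Max, occurred in 4 of the 61 windows (6.56%) and in 7.15% of all windows. Those 4 belonged to Krt23, Krt75, Krt78 and Epcam, where its letters were bases 281 to 286 of the window, after the start. Of these keratins Krt78 was tested, with a difference of 0.15 (95% interval -0.20 to 0.51). A match is a description of letters and not a bound site.

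The desmosome group gave 5 tested genes of 7, with a median difference of -0.17 (1 positive, 4 negative). Pkp2, a plakophilin that links desmosomal cadherins to the filaments and is also known from the heart, had the highest means of all members and was read by 4 tested probe sets. The one with the highest mean had 9.91 and 10.23 on the Myc-depleted arrays, against 10.65 and 10.37 on the control arrays. Both Myc-depleted arrays were lower, although Myc-depleted 2 was closer to control 2 than the control arrays were to each other. The difference was -0.44 (SE 0.19, limma adjusted p = 0.546). It was -0.28 without Myc-depleted replicate 1 and -0.61 without Myc-depleted replicate 2. A second probe set had 9.11 and 9.14 on the Myc-depleted arrays, against 9.66 and 9.66 on the control arrays. Here the groups were apart by far more than the arrays of either group, with a difference of -0.54 (SE 0.11, 95% interval -0.84 to -0.24), 68.9% of the control level. Its limma unadjusted p was 0.0077 and its adjusted p 0.364. The remaining probe sets, with means of 5.46 and 5.37, differed by -0.48 (SE 0.22) and -0.08 (SE 0.15).

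**Figure D4:**
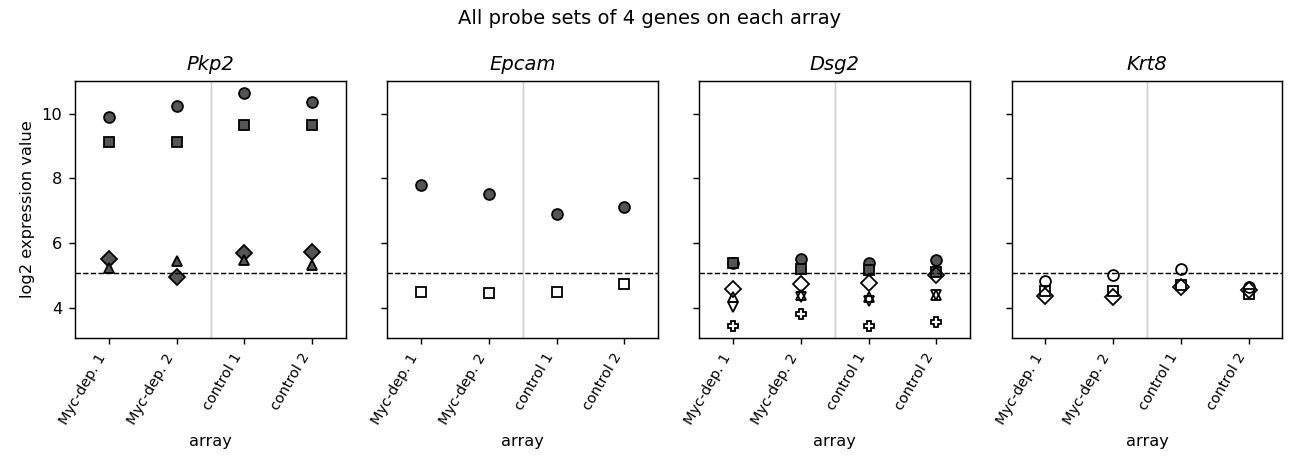
Log2 expression value on each array of every probe set of Pkp2, Epcam, Dsg2 and Krt8 (1 marker shape per probe set, filled where it passed the low-value threshold drawn as a dashed line). The brighter pair of Pkp2 probe sets is lower on both Myc-depleted arrays, 1 of 2 Epcam probe sets is higher there, and the 3 of Krt8 are all open.

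Jup, plakoglobin, which serves both desmosomes and adherens junctions, had 6.47 and 6.47 on the Myc-depleted arrays, against 6.71 and 6.57 on the control arrays. The groups did not overlap, and the difference was -0.17 (95% interval -0.50 to 0.17). Pkp1, a plakophilin of stratified epithelia, had 5.78 and 5.79 on the Myc-depleted arrays and 5.87 and 5.78 on the control arrays, with overlap. Pkp3 differed by -0.19 (SE 0.13) through 1 probe set, and its other was under the threshold.

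The desmosomal cadherins and desmoplakin were low. Dsg2, the desmoglein of simple epithelia, had 6 probe sets, of which 2 were tested with means of 5.43 and 5.21 and differences of 0.02 and 0.14. Dsc2, its desmocollin partner, had means of 4.90 and 4.21, and Dsp, desmoplakin, which ties keratins to the junction, had means of 4.57, 4.20 and 3.77. Neither was tested. All 3 probe sets of Dsp were under 5.08 on every array.

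Among the regulators, Esrp1 and Esrp2 direct epithelial splicing and Grhl2 activates Cdh1 and claudin genes. Esrp1 had a mean of 4.05 and was not tested. Esrp2 had 5.90 and 5.90 on the Myc-depleted arrays, against 5.67 and 5.67 on the control arrays, and the groups were well apart for this probe set. The difference of 0.23 (SE 0.11, 95% interval -0.07 to 0.53) had a limma adjusted p of 0.579, and a second probe set differed by 0.16 with overlapping groups. Grhl2 had 6.00 and 6.07 on the Myc-depleted arrays and 5.98 and 6.07 on the control arrays, a difference of 0.0056, and a second tested probe set differed by 0.16.

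With the spike-in 3′ minus 5′ value as a covariate, which leaves 1 residual degree of freedom, 5 member probe sets passed the adjusted threshold in limma. Epcam (0.62, adjusted p = 0.017), Cldn15 (0.67, adjusted p = 0.030) and Krt36 (0.42, adjusted p = 0.049) were higher, where 5.32% of all probe sets were called higher. The probe sets of Pkp2 with differences of -0.54 (adjusted p = 0.024) and -0.52 (adjusted p = 0.043) were lower, where 6.61% of all were called lower.

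Genes around the members were taken from lists of known genes and counted at an unadjusted limma p under 0.05 and read against the shares of all genes given above for that threshold. Of 23 other adherens and tight junction genes 19 were tested, 0 reached it, and the median difference was -0.04. The tight junction scaffold Tjp1 differed by -0.20, the adhesion molecule Jam2 by 0.26 and F11r by -0.37. The epithelial junction genes Tjp3, Cgn, Marveld2 and Marveld3 were not tested. Of 12 polarity genes 11 were tested and 0 reached it, with a median of 0.04 and with Dlg1 at 0.20, Mpp5 at -0.27 and Scrib at -0.26.

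Of 14 other desmosome, plakin and cornified envelope genes 6 were tested. Periplakin (Ppl), a linker of keratins at the cell edge, had 7.26 and 7.36 on the Myc-depleted arrays, against 6.55 and 6.48 on the control arrays, a difference of 0.79 (SE 0.12, unadjusted p = 0.0023, adjusted p = 0.295). Pkp4, an armadillo protein related to the plakophilins, had 8.37 and 8.66 on the Myc-depleted arrays, against 9.05 and 8.99 on the control arrays, a difference of -0.50 (SE 0.15, unadjusted p = 0.029). Perp, a desmosomal p53 target, had 5.28 and 7.18 on the Myc-depleted arrays and 5.04 and 5.18 on the control arrays, so its difference of 1.12 (SE 0.68) rested on Myc-depleted 2. Of 11 other epithelial surface and protease genes 5 were tested and 0 reached the unadjusted threshold. Of the lettered keratins and keratinocyte-associated genes outside the rule 4 of 6 were tested, with Krt6a at 0.01.

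Epithelial transcription factors gave 4 tested genes of 13, and Grhl1, Grhl3, Ovol1, Ovol2, Elf5, Trp63, Foxa2, Nkx2-1 and Tfcp2l1 were not tested. Klf5, a zinc finger factor of proliferating epithelia that fibroblasts and smooth muscle also make, had 6.94 and 6.09 on the Myc-depleted arrays, against 8.04 and 7.997 on the control arrays. Klf5 was lower on both Myc-depleted arrays, with a difference of -1.50 (SE 0.32, unadjusted p = 0.0090, adjusted p = 0.376). Foxa1 differed by 0.42 with overlapping groups.

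By contrast, all 15 genes of the cadherin switch and of epithelial to mesenchymal transition were tested, and all 15 had a mean of at least 7. Of these 0 were higher and 2 lower at the unadjusted threshold, with a median of 0.05. N-cadherin (Cdh2) had 10.4 and 10.2 on the Myc-depleted arrays and 10.3 and 10.1 on the control arrays, and its groups overlapped. The fibronectin receptor subunit Itga5 differed by -0.78 (SE 0.17), cadherin 11 (Cdh11) by -0.43 (SE 0.14) and the repressor Zeb1 by -0.34 (SE 0.13, unadjusted p = 0.059). The repressor Snai1 differed by 0.35 (SE 0.19) and the mesenchymal factor Prrx1 by 0.34 (SE 0.18), both without overlap of the groups and short of the unadjusted threshold. Of 12 other intermediate filament genes 9 were tested. Nestin (Nes) had 6.83 and 6.98 on the Myc-depleted arrays, against 7.83 and 7.35 on the control arrays, a difference of -0.68 (SE 0.21, adjusted p = 0.445), whereas Vim differed by -0.09.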

How the data were processed

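The deposited table held log2 expression values of 45101 probe sets on 4 arrays. The authors made them in Partek's software, by Robust Multichip Average per their methods, whereas the submitters' processing notes name Partek 6.4 and GCRMA. Which of them made the values was not settled here, and it bears most on low values such as those of most members. Values ran from 2.89 to 14.6, with array medians of 5.48 to 5.49. Background light compresses differences of dim probe sets.

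The 64 control probe sets and those with a mean under the 40th percentile were left out, which left 27022. Gene symbols came from the platform annotation, and all 116 member probe sets matched RefSeq by Entrez identifier. A gene was represented by its tested probe set with the highest mean. Groups were compared with limma 3.58.1 (R 4.3.3) across all probe sets, with Benjamini-Hochberg adjustment. There were 2 residual and 2.02 prior degrees of freedom. Values on all arrays are given for Myc, for member genes with an unadjusted p under 0.05, for those without overlap that differed by at least 0.5, and for the 3 genes with the highest mean in each role. Krt7, Cdh1 and other members are also given in this way by choice. The members, lists and alternatives were chosen with earlier results of these data known.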

Additional observations from a re-analysis of the deposited data

How the results depend on the processing

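The 41 tested member probe sets gave 0 calls in limma under each alternative run except the spike-in covariate, where 5 were called and 8 had an unadjusted p under 0.05, against 4 without it. All probe sets gave 0 calls (2726 at an unadjusted p under 0.05) except with that covariate (3224) and with the crossed pairing named below (21), while genes read as the mean of their probe sets gave 22, of which 0 were members. The methods' ANOVA also gave 0 calls, with 2521 at an unadjusted p under 0.05. With no filter, 7 member probe sets had an unadjusted p under 0.05. Leaving out 1 array gave 1 to 4 such member probe sets and a median over member genes between -0.029 and 0.104. That median was 0.10 between Myc-depleted 2 and control 1 alone and 0.092 between Myc-depleted 2 and control 2, but -0.0081 between Myc-depleted 1 and control 1 and 0.0028 between Myc-depleted 1 and control 2.

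With the replicate number as a block in limma, 2 member probe sets had an unadjusted p under 0.05, those of Cldn15 (0.032) and Krt19 (0.044). Epcam (0.059) and Krt80 (0.094) did not reach it. Deviations of same-numbered arrays correlated at -0.77 over probe sets, so same-numbered arrays did not deviate alike. The spike-in values were crossed in the same way, so this correlation cannot show whether same-numbered arrays shared a culture or preparation. The crossed pairing, chosen after seeing the data, gave 21 calls, 0 of them members, and 7 members at an unadjusted p under 0.05.

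In the alternatives with a test, the sign turned for 4 named genes with differences near 0. Krt81 was 0.0042 after quantile normalization and 0.017 with the spike-in covariate, and -0.12 to 0.10 when 1 array was left out. In the same way Grhl2 ran from -0.037 to 0.049, Krt5 from -0.027 to 0.085 and Pkp1 from -0.087 to 0.0054. The other 13 named genes kept their sign in each alternative with a test. Between single arrays the sign also turned for Krt19 (-0.047 for Myc-depleted 2 minus control 1), Krt10 (-0.020) and Cldn12 (-0.0070, both for Myc-depleted 2 minus control 2). The number of arrays and the nearness of most members to background limit what can be read from these values.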
